A study of Mus musculus with 12 samples.

Results

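The subject is a block of 3 Mb of mouse chromosome 6 (build mm10) that holds 7 listed genes, Grin2b, Atf7ip, Plbd1, Gucy2c, Wbp11, Art4 and Mgp. Its members are all regions of the authors' deposited table that start in it, which gave 100 of 68291 regions, the first at 135004420 and the last at 137979665. The block was selected on the positive log2 fold changes of this same table, so its fold changes and p-values are given as a description and support nothing. The study profiled H3K9me3, trimethylated lysine 9 of histone H3, by chromatin immunoprecipitation and sequencing in Tex19.1-/- (knockout) and Tex19.1+/- (heterozygous) mouse embryonic stem cells, with 3 immunoprecipitated (IP) and 3 input libraries per genotype. Both genotypes derive from E14Tg2a, a 129/Ola line, and were grown in serum with leukaemia inhibitory factor at passages 12 to 20; how many clones were used, and whether the 3 libraries came from separate cultures, is not given in the labels. The spread behind any p-value may therefore be technical. The genotype field contradicts the title in 6 of the 12 libraries. The table gives 1 comparison and 0 columns of single libraries, and it does not state which genotype was divided by which. A positive log2 fold change therefore means more signal in the numerator genotype, whichever that is. More cells carrying the mark and more mark per cell, among other readings, cannot be told apart, and DNA copy number was not tested.

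H3K9me3 marks heterochromatin, where it is bound by HP1 proteins and is associated with silent repeats and silent genes. In embryonic stem cells much of it is laid down by the methyltransferase SETDB1, which is brought to endogenous retroviruses and some genes by KRAB zinc finger proteins and their cofactor TRIM28. ATF7IP, encoded in this block, is a binding partner of SETDB1 and is known to keep SETDB1 stable and in the nucleus. Tex19.1 is a mammal-specific gene expressed in germ cells and pluripotent cells.

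The deposited values allowed the reads behind each region to be recovered. The p-values fell on the grid of an exact test that compares 2 whole-number read sums. A pair of whole sums gave the deposited p of all 100 regions of the block and of 99.7% of the 58901 regions with a p below 1. This was inferred from the values, since the sources used here do not name the test. The sums below are reads per genotype after scaling to a common library size, with the numerator genotype first. Over all regions they add up to 4908464 reads in the numerator genotype and 4970962 in the denominator genotype. The 100 regions held between 8 and 1004 reads each, both genotypes together, with a median of 68.5. Intervals given with fold changes are exact 95% binomial (Clopper-Pearson) intervals of the ratio of these sums and cover counting error only.

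The grid also showed how the p-values treat spread. They correspond to a dispersion of 0.000101 with 3 libraries per genotype, a coefficient of variation of 1.00% between libraries, so the deposited p and FDR are close to pure counting statistics. Whether single libraries spread more than this was not analysed here. Outside chromosomes 11 and 16 the sums together scattered little beyond counting. About a common ratio their Pearson statistic per degree of freedom, which is 1 for counting alone, was 1.00 over all regions outside these chromosomes. It was 0.977 over chromosome 6 outside the block and the 2 Mb on either side of it. Over all regions it was 1.15, on chromosomes 11 and 16 also 1.15, and in the block 1.75. The statistic compares sums between regions and does not measure the spread between libraries. Chromosomes 11 and 16 are set apart because 84.6% of their regions were positive, against 46.0% elsewhere.

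Some annotated promoters of the block meet a region, and 2 are shown because they lie in the cluster of regions that holds the calls. Of 50 promoter windows of 300 bases (RefSeq, GRCm38.p6), 6 overlapped a region, at Gsg1, Gm36844, Gm44140 and Atf7ip. The share over all promoter windows is not given here, so this count is not read as high or low. The Gm36844 window (minus strand, chr6:136454671-136454970) lies in a region with a log2 fold change of 0.40, and the Atf7ip window (plus strand, chr6:136518601-136518900) in a region with 0.07, with overlapping counting intervals. Capitals mark CG dinucleotides, and each sequence is as RefSeq lists it for the gene's strand.
Gm36844: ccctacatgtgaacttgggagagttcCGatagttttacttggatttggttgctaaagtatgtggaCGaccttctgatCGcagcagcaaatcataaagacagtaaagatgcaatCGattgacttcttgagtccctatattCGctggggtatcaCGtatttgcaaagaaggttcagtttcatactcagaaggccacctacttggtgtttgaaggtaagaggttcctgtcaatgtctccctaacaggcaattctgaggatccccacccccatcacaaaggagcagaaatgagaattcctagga
Atf7ip: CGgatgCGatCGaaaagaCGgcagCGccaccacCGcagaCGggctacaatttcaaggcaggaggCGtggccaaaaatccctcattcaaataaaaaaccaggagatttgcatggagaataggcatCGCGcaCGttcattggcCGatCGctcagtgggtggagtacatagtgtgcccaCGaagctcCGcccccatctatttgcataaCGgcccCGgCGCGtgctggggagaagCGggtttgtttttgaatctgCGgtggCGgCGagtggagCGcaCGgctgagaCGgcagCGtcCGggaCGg
The Atf7ip window held 29 CG dinucleotides, a number that 12.9% of 32851 windows reach, and the Gm36844 window held 6, close to the median of 7. The Atf7ip window also held CCAAT and GGGCGG, searched on both strands, which occur in 37.4% and 35.7% of all windows. TATAAA, found in 13.6% of all windows, was in neither of the 2, and the Gm36844 window held none of these motifs. Gm44140, a long noncoding RNA gene on the opposite strand, has a window that shares the same region and most of the same bases.

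**Figure D1:**
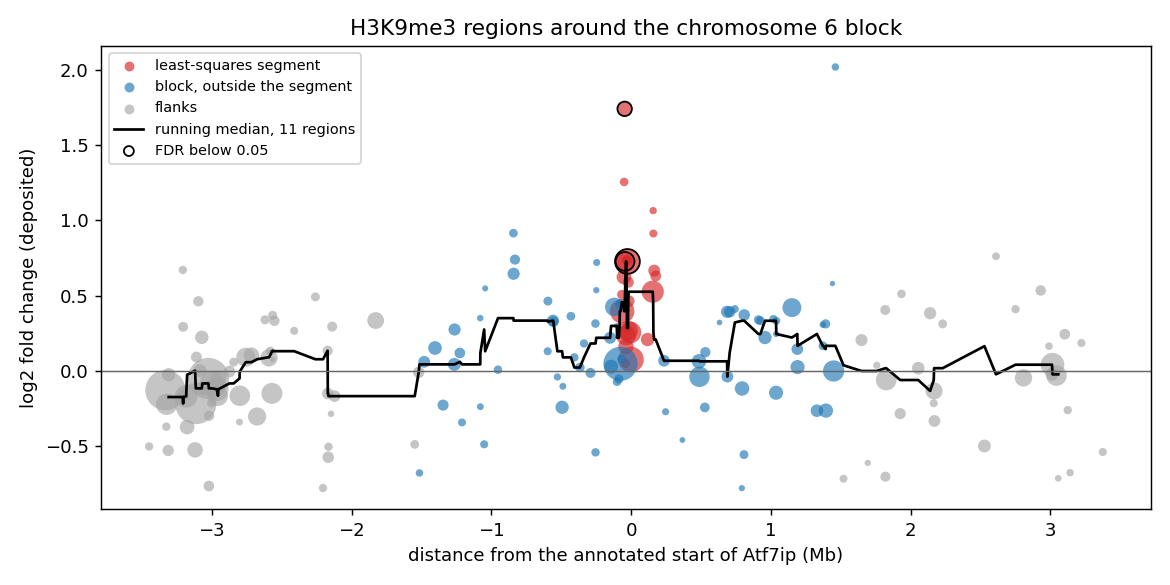
Log2 fold change of each region against its distance from the annotated start of Atf7ip, in Mb, over the block and its flanks of 2 Mb. Red points belong to the least-squares segment, blue ones to the rest of the block and grey ones to the flanks. Point area grows with the reads of the region, circled points had an FDR below 0.05, and the line is a running median over 11 regions. The 3 circled regions lie within 50 kb before Atf7ip. In the flank before the block 34 of 53 regions lie below 0, and in the flank after it 16 of 30.

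Over the whole block 76 of 100 regions were positive and 24 negative, with a median log2 fold change of 0.25 and values from -0.78 to 2.02. The summed reads were 6521 in the numerator genotype and 5474 in the denominator genotype, a log2 ratio of 0.25 (0.20 to 0.30). The 2 Mb before the block had 5549 and 5994 reads over 53 regions, a log2 ratio of -0.11 (-0.16 to -0.06), and the 2 Mb after it had 1622 and 1657 reads over 30 regions, -0.03 (-0.13 to 0.07). The rest of chromosome 6 had a log2 ratio of -0.04 (-0.05 to -0.04) and a median of -0.02 over 3745 regions, 47.4% of them positive. Chromosomes 11 and 16 together had a log2 ratio of 0.26 (0.25 to 0.27) and a median of 0.30 over 5757 regions. The block thus lay above both flanks and the rest of its chromosome, as its selection requires.

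The authors' deposited table called 3 of the 100 regions at an FDR below 0.05, all positive. Of all regions in the table, 0.281% were called, 0.192% positive and 0.0893% negative, and on the rest of chromosome 6 0.0534%. The 3 were among 5 calls on chromosome 6. The unadjusted p of the authors was below 0.05 in 16 regions, all positive. Over the whole table this held for 4.74% of regions, 2.70% positive and 2.05% negative, and on the rest of chromosome 6 for 1.26% with a positive sign. Since these p-values come from the contrast that selected the block, nothing is read from the excess. At the limits of the block the neighbouring values were -0.01 at 134998648 outside and -0.68 at 135004420 inside, and 2.02 at 137979665 inside and -0.72 at 138037840 outside.

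**Figure D2:**
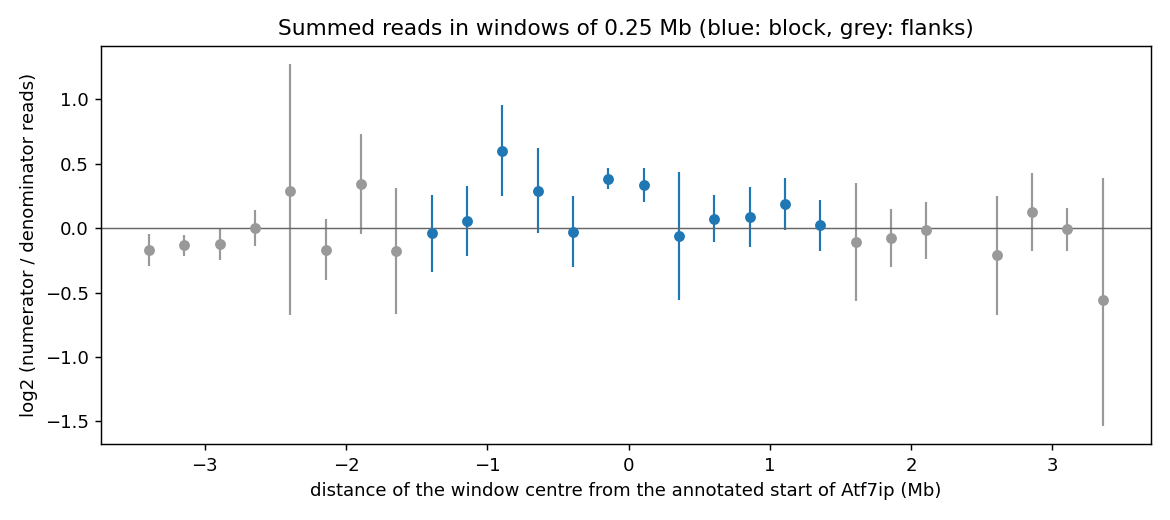
Log2 ratio of summed reads, numerator over denominator genotype, in windows of 0.25 Mb against the distance of the window centre from the start of Atf7ip. Bars are 95% counting intervals, blue windows lie in the block and grey ones in the flanks. The blue windows that start at 135.5, 136.25 and 136.5 Mb have intervals above 0, the other blue windows have intervals that include 0, and the first 3 grey windows lie below 0.

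The shift was not even along the block. In windows of 0.25 Mb the summed ratio was 0.60 (0.25 to 0.96) from 135.5 to 135.75 Mb, 0.38 (0.30 to 0.47) from 136.25 to 136.5 Mb and 0.33 (0.20 to 0.47) from 136.5 to 136.75 Mb. Between them, from 136 to 136.25 Mb, it was -0.03 (-0.30 to 0.25), and from 136.75 to 137 Mb it was -0.06 (-0.56 to 0.44). In the last Mb the median log2 fold change was 0.22 over 31 regions but the summed ratio was 0.09 (-0.01 to 0.19). The 2 regions with most reads there, at 137965540 and 137006353, had 188 and 189 reads and 171 and 176 reads.

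A least-squares fit of 1 mean inside and 1 mean outside a run of at least 5 consecutive regions, over the block and its flanks, placed the run from 136451649 to 136695265. Such a fit does not seek the highest mean, and the 14 regions from Gm36897 to Gm44140 inside the run had a log2 ratio of summed reads of 0.58 (0.46 to 0.70). This segment of 243.6 kb held 24 regions, all positive, with a mean log2 fold change of 0.58 against 0.03 outside it. It had 2802 reads in the numerator and 2028 in the denominator genotype, a log2 ratio of 0.47 (0.38 to 0.55). The fit sets its edges where values change, so a step between neighbours there comes from the method and gives the edges no support. The counting intervals of single regions overlap across both edges. The last regions before the segment had 0.05 (136439145) and 0.08 (136450356), and the first inside had 0.51 (136451649) and 0.40 (136452910). At the other end the last inside had 0.67 (136683033) and 0.63 (136694348), and the first outside had 0.07 (136753537) and -0.27 (136765147).

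The limits of the shift differed between methods, and the values outside the segment were uneven. The 76 regions of the block outside the segment had 3719 and 3446 reads, a log2 ratio of 0.11 (0.04 to 0.18) and a median of 0.14, with 52 positive. This sum pools the regions at 4930425L21Rik (0.72) with stretches near 0, such as the 13 regions before them, at 0.01 (-0.18 to 0.21), and those from Gucy2c to Mgp, at -0.06 (-0.56 to 0.44). With absolute deviations in place of squares, the segment ran from 135474625 to 137980331 and held 89 regions with a median of 0.30. Without the single region at 136471695 the least-squares segment had the same wide limits. With the span widened by 2 Mb on either side it ran from 135474625 to 136695265, 1220.6 kb. The end at 136695265 was thus the same in both least-squares spans with all regions, whereas the start was not.

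**Figure D3:**
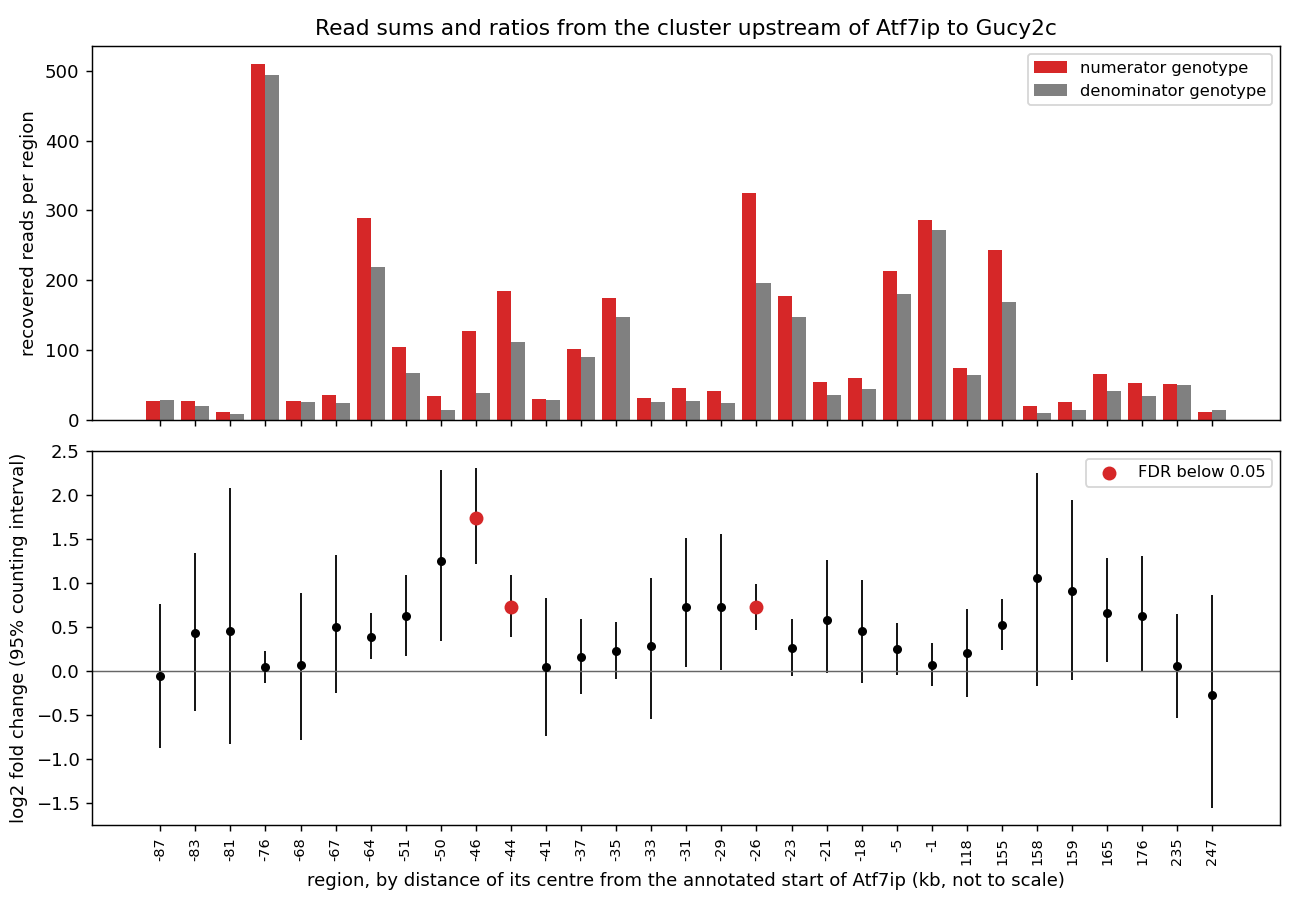
Recovered reads per region in the numerator and denominator genotype (upper panel, bars from 0) and log2 fold change with 95% counting interval (lower panel) for the regions from 87 kb before to 247 kb after the start of Atf7ip. Regions are evenly spaced and labelled by distance in kb. The largest gap between the bars in proportion is at -46 kb, where 128 reads stand against 38, while the tallest pair at -76 kb, 510 against 494, is nearly level.

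The 3 called regions lay upstream of Atf7ip, between and within noncoding RNA genes. The strongest (chromosome 6, 136471695 to 136473346), an intergenic region that begins close after the end of Gm36897, had 128 reads in the numerator genotype and 38 in the denominator genotype. In the authors' deposited table its log2 fold change was 1.74, a 3.35-fold difference (interval of the log2 ratio 1.22 to 2.31), at an FDR of 8.94e-09. It was the 5th of the positive calls of the table by p and the 4th by size. Of 13178 regions within 0.5 log2 CPM of it, counting itself, 1 had a value at least as high. These ranks use the values that selected the block and are a description only.

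The next region, 443 bp further (136473789 to 136476476), had 185 and 111 reads and a log2 fold change of 0.73 (interval 0.39 to 1.09), and the authors' deposited table lists an FDR of 0.0133. The third (136490860 to 136494326) lies inside Gm44140, the noncoding RNA gene whose start adjoins that of Atf7ip. It had 325 and 196 reads, and the authors' deposited table gave it 0.73 (0.47 to 0.99) and an FDR of 4.42e-05. The calls at 136473789 and 136490860 depended on the assumed spread: with a dispersion of 0.01, a coefficient of variation of 10%, their adjusted p in an exact test over all regions was 0.452 and 0.0894. The region at 136471695 stayed below 0.05 there (adjusted p = 6.13e-06) and at a dispersion of 0.04 (adjusted p = 0.0108, exact test). These tests reuse the values that selected the block, so they are a description and support no call. Over all regions the exact test left 19 calls at 0.01 and 5 at 0.04, against 192 as deposited. Unadjusted p-values below 0.05 numbered 1903 and 739 of 68291, against 3239 as deposited. Both dispersions were set by hand, and the spread between single libraries, which would set the right value, was not analysed here.

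Around these 3, the marked regions stood close together. From 136436036 to 136519636, 22 regions covered 46.3% of the sequence, against 3.17% on the rest of chromosome 6. Cutting the cluster at its own first and last region raises this share. Regions also stood close together in the flank before the block, as from 133398483 to 133409372, with gaps of 524 and 280 bp. The 22 regions of the cluster had a median signal of 13.5 CPM per kb, against 11.4 on the rest of chromosome 6. The cluster was thus dense in regions more than it was strong per base. All 22 were positive, but the first was taken where the run of positive regions begins, and the region 4260 bp before it (136431242) had -0.06. They had 2894 and 2243 reads, a log2 ratio of 0.37 (0.29 to 0.45). As a description, the Pearson statistic per degree of freedom about a common ratio was 3.47 in this cluster. In the segment it was 2.65, and 1.22 without the 3 called regions. Leaving out called regions lowers such a statistic, so nothing is read from the fall.

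The widest region of the block (136439145 to 136445994, 6849 bp), in the same cluster, had 510 and 494 reads and a log2 fold change of 0.05 (-0.14 to 0.23). Between it and the called regions, the region over the start of Gm36844 (136452910 to 136456404) had 289 and 219 reads and 0.40 (0.14 to 0.66), with a p of 0.00227 (FDR 0.303) in the authors' deposited table. Inside Gm36897 the region at 136466987 had 105 and 68 reads (0.62, FDR 0.516) and that at 136468798 had 34 and 14 reads (1.26, FDR 0.496), both in the authors' deposited table. The region at 136487322, close to Gm44140 and 2 pseudogenes, had 46 and 27 reads (0.73, FDR 0.960 in that table). Values near 0 also stood among these, as at 136477811, 1335 bp after a called region, with 30 and 29 reads.

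Positive regions followed each other without a break over 29 regions, from 136436036 to 136754520. Outside chromosomes 11 and 16, 3 of 14662 positive runs in the table were as long, and the other 2 began on chromosome 13 between 22 and 26 Mb. On chromosomes 11 and 16 there were 10 such runs. The block was selected on its positive values and its longest run was then taken, so nothing is read from this rank.

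Of the 7 genes, 4 had a region in their body or within 5 kb, 16 regions in all, with a median log2 fold change of 0.11. Of these, 12 were positive, against 49.2% of all regions, and 0 were called, against 0.281%. The authors' unadjusted p was below 0.05 in 0 of the 16, against 4.74% of all regions, so that at this number the counts of calls and of small p say little.

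Grin2b (135713221 to 136173615) encodes GluN2B, a subunit of the NMDA-type glutamate receptor of neurons, and is by far the longest gene here. Its 10 regions had log2 fold changes from -0.24 to 0.46 and a median of 0.11, 7 of them positive. Together they held 327 and 302 reads, a log2 ratio of 0.11 (-0.12 to 0.35). The region with most reads (136024224 to 136025859) had 63 and 75 reads and -0.24 (FDR 1 in the authors' deposited table). The region of smallest p (135922944 to 135923571) had 31 and 22 reads and 0.46 (p = 0.272 in the authors' deposited table). The values at Grin2b thus lay on both sides of 0, and the counting interval of their sum included 0.

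Higher values lay beyond the lower-coordinate end of Grin2b, in and just after the noncoding RNA gene 4930425L21Rik. The 3 regions there had 32 and 17 reads (135676594), 69 and 44 reads (135677480) and 46 and 28 reads (135687458). Their log2 fold changes were 0.92, 0.64 and 0.74, and the lowest FDR among them was 0.852 in the authors' deposited table. Summed, they gave 147 and 89 reads, a log2 ratio of 0.72 (0.33 to 1.12).

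Atf7ip (136518789 to 136610850) had a single region in its body, which covers the start of the gene and the start of Gm44140 (136515959 to 136519636). It had 286 and 272 reads, a log2 fold change of 0.07 (-0.17 to 0.32; FDR 1 in the authors' deposited table). The region 535 bp before it (136512444 to 136515424) had 214 and 180 reads and 0.25 (-0.04 to 0.54). The promoter of Atf7ip was thus covered by a region with no called difference, and the strongest region of the block lay 45443 bp upstream of the gene. After its start no region was listed for 116182 bp, over the rest of the gene.

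Plbd1 (136612071 to 136662303), a gene for a phospholipase B domain protein, had 1 region (136635818) with 75 and 65 reads and 0.21 (-0.29 to 0.71). Between Plbd1 and Gucy2c 5 regions had values from 0.53 to 1.07 and together 409 and 268 reads, a log2 ratio of 0.61 (0.38 to 0.84). The strongest of them (136671884 to 136674979) had 244 and 169 reads and 0.53, with a p of 0.000275 (FDR 0.0789) in the authors' deposited table. When only regions of at least 1000 bp were adjusted, its adjusted p was 0.0310.

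Gucy2c (136697284 to 136781742) encodes the guanylate cyclase receptor of the gut for guanylin and bacterial heat-stable enterotoxin. Within its body there were 2 regions, with 52 and 50 reads (136753537, log2 fold change 0.07) and 12 and 15 reads (136765147, -0.27). The third region assigned to it, at 136694348 on the pseudogene Gm4714 within 5 kb, had 53 and 34 reads and 0.63 (p = 0.0532 in the authors' deposited table). The run of values above 0.5 from the Plbd1 side thus ended before the body of Gucy2c.

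Wbp11, which encodes a splicing-associated protein that binds WW domains, Art4, which encodes the ADP-ribosyltransferase family protein of the Dombrock blood group in humans, and Mgp, which encodes an inhibitor of calcification, had no listed region in their bodies or within 5 kb. The nearest regions were 48041 bp from Wbp11, 27989 bp from Art4 and 9766 bp from Mgp. The one near Art4 and Mgp (136885589) had 5 and 7 reads, too few to show a difference.

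**Figure D4:**
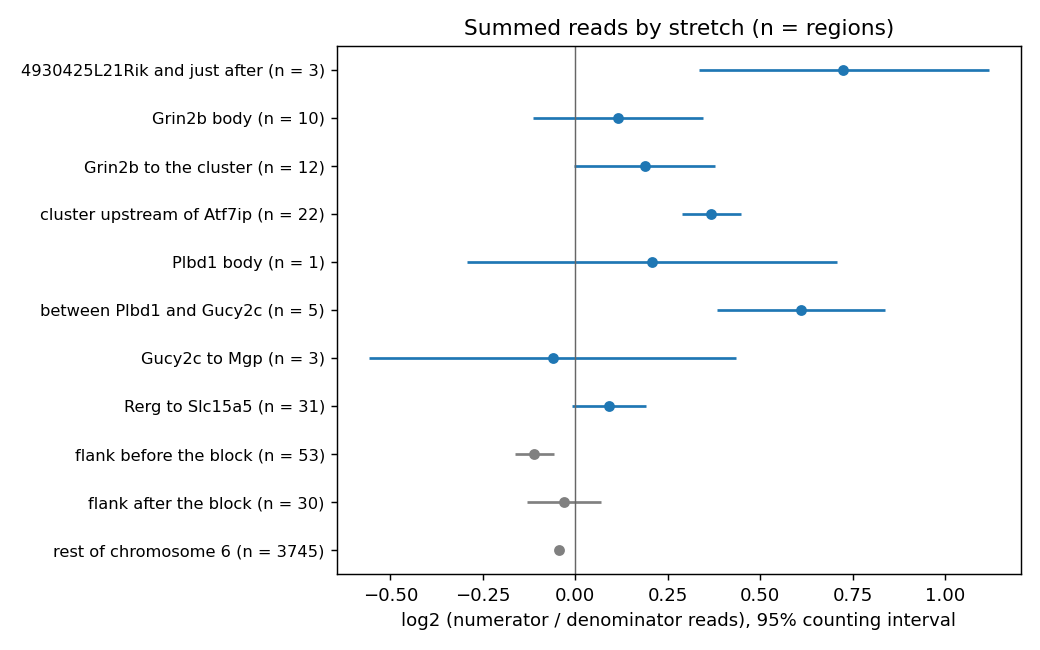
Log2 ratio of summed reads with 95% counting interval for stretches of the block, chosen after their values were seen, (blue, in genome order from the top) and for the flanks and the rest of chromosome 6 (grey). Those at 4930425L21Rik, in the cluster upstream of Atf7ip and between Plbd1 and Gucy2c lie above 0, whereas the bodies of Grin2b and Plbd1 and the stretch from Gucy2c to Mgp have intervals that include 0.

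In this block the log2 fold changes above 0.5 lay outside protein-coding genes. Of the 100 regions, 31 overlapped a protein-coding gene, 20 overlapped only another kind of gene and 49 lay between genes, with medians of 0.13, 0.44 and 0.22. A log2 fold change above 0.5 was found in 22 regions, against 10.1% of all regions in the table. None of the 22 overlapped a protein-coding gene, 9 overlapped only a noncoding gene or pseudogene and 13 lay between genes. The share of all regions in the table that overlap a protein-coding gene is not given here. Several of the 22 are neighbours in the cluster upstream of Atf7ip, and some rest on few reads, such as 9 and 6 at 135474625. The block was also selected on these values, so nothing is read from this split. Repeats, which hold much of the H3K9me3 of embryonic stem cells, were not analysed here.

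Beyond Gucy2c, 2 other regions had a small p. One between Eps8 and Strap (137667792 to 137670366) had 171 and 127 reads and 0.42, FDR 0.706 in the authors' deposited table. The other (137979665 to 137980331), within 5 kb of the peptide transporter family gene Slc15a5, had the highest value of the block, 2.02, from 26 and 6 reads (0.80 to 3.69; FDR 0.122 in the authors' deposited table). Before the cluster, the region over the pseudogene Tubb3-ps1 (136396883 to 136399912) had 162 and 121 reads and 0.42 (FDR 0.782 in the authors' deposited table). The most negative values were -0.78 (137310740, in Ptpro, 6 and 11 reads), -0.68 (135004420, 12 and 20 reads) and -0.56 (137326017, in Ptpro, 21 and 31 reads), all with FDR 1 in the authors' deposited table.

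In the flanks the authors' test called 0 regions, with 3 unadjusted p-values below 0.05 before the block, all negative, and 0 after it. The smallest p before the block belonged to a broad region (133400917 to 133408268) with 683 and 795 reads and -0.22 (FDR 0.442 in the authors' deposited table). After the block it belonged to 138337381, with 27 and 44 reads and -0.71 (FDR 1 in that table).

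**Figure D5:**
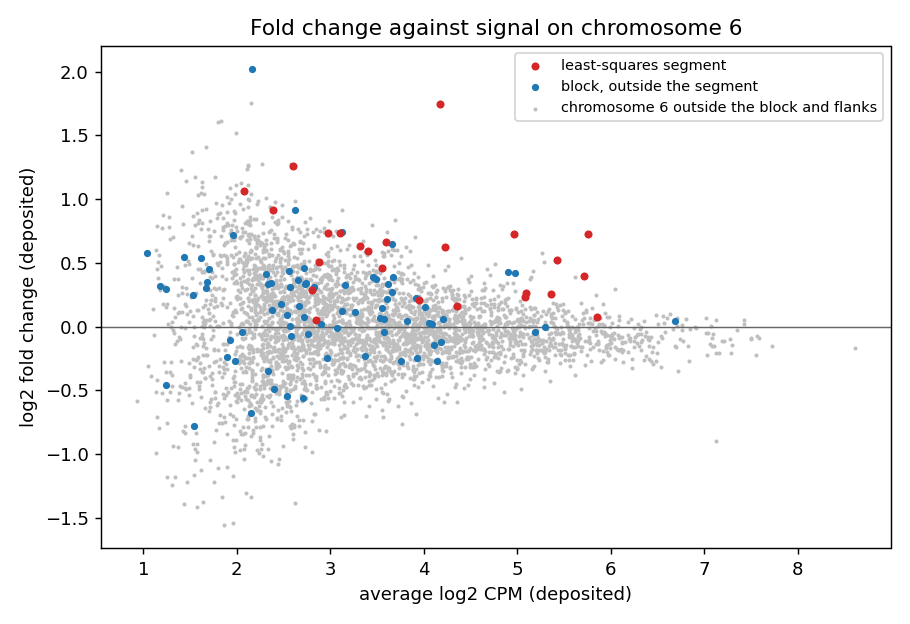
Log2 fold change against average log2 CPM for regions of chromosome 6, with the segment in red, the rest of the block in blue and regions outside the block and its flanks in grey. The red point at 1.74 stands above the grey points of like signal, and the other red points lie between 0.05 and 1.26.

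Strong regions tended to lie slightly below 0, so the values were also compared at like signal. From each value the median of regions with similar log2 CPM, chromosomes 11 and 16 left out, was subtracted. The median of the block was then 0.27 and that of the segment 0.60, against -0.03 in the flank before the block, 0.01 in the flank after it and 0.01 on the rest of chromosome 6. The flank before the block had a median of -0.12 as deposited, so the block stood less far above it on this scale. The strongest region had 1.79 on this scale, the Atf7ip start 0.15 and the widest region 0.14.

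Genes related to the listed ones were set beside them, and the authors' FDR called 0 regions in each of the lists, against 0.281% of all regions, a share at which lists of this size would rarely hold a call. The share of all regions with an unadjusted p below 0.05, 4.74%, applies to the counts that follow. The 8 NMDA receptor genes had 23 regions at Grin2a and Grin2b, with 0 unadjusted p-values below 0.05 and a median of 0.17. Of these, 13 lie at Grin2a on chromosome 16, where most regions were positive. The smallest p of that list was 0.101 at Grin2a, with 44 and 29 reads. Of 22 genes of the SETDB1 pathway and of H3K9 methylation, 7 had a region, 16 regions in all, with a median of 0.17 and 2 unadjusted p-values below 0.05. One was at Atf7ip2, the paralog of Atf7ip, also on chromosome 16, where a region with 1412 and 1238 reads had 0.19 (p = 0.00094, FDR 0.182 in the authors' deposited table). The other was at Pphln1, a subunit of the HUSH silencing complex, with 28 and 10 reads and 1.48 (FDR 0.481 in that table).

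The remaining lists were small. Receptor guanylate cyclases had 12 regions with a median of -0.05 and 0 unadjusted p-values below 0.05, the smallest being that beside Gucy2c given above. The ADP-ribosyltransferases had 4 regions with a median of -0.01, of which 1 at Art2b had an unadjusted p of 0.0398 by the authors' test, with 37 and 58 reads. The vitamin K-dependent matrix proteins had 1 region, shared by Bglap2 and Bglap3 (-0.14, p = 0.189 in the authors' deposited table), and the phospholipase B domain genes had 2, the lower p being 0.448 at Plbd1. Marker genes were also listed, although fold changes between genotypes cannot check the cell type label. Of 7 pluripotency genes, 2 had a region, with 3 regions at Nanog and Esrrb and values from -0.04 to 0.10. Fibroblast genes had 7 regions with values from -0.33 to 0.87 and a median of 0.07. Of these, 2 had an unadjusted p below 0.05, both positive. One was at Col1a1 on chromosome 11, where most regions were positive, with 129 and 96 reads and 0.43 (p = 0.0330 in the authors' deposited table). The other was at Thy1, with 48 and 29 reads and 0.72 (p = 0.0397 in the authors' deposited table). A chromatin region at such a gene names no cell type.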

How the data were processed

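The block was defined as 135 to 138 Mb of chromosome 6, with flanks from 133 and to 140 Mb. The authors deposited 1 table with 0 columns of single libraries. Its columns, per the file headers, are for each region the log2 fold change, the mean log2 CPM, the p-value and the FDR. Tools named by the submitters' processing notes are edgeR (version not listed), bedtools 2.25.0, HOMER 4.8 and Bowtie2 2.2.6, and their genome build is mm10. Which libraries were compared, how regions were found and how input was used: not given in the sources used here. Coordinates are as the table gives them. Genes and promoters came from RefSeq tables of GRCm38.p6, the assembly that mm10 names, with no exons.

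Whole read sums were sought whose exact conditional test (negative binomial, equal groups, doubled tail) gave the deposited p within 0.002% (0.6% below a p of 0.0001). The ratio of libraries to dispersion, 29840, was read from 13 frequent p-values, and reads per CPM (9.89) and the 12 reads added over all libraries from a straight line of CPM on sums. The 12 added reads would fit 6 libraries, but the table does not name them. Recovery was checked on 6000 simulated regions, where 99.98% of pairs were exact. These were simulated with the same test and added reads that the recovery assumes, and with a known dispersion. The check therefore covers the search for sums and cannot show that the authors' values arose in this way. Sums for regions whose p was not matched are estimates from the log2 fold change and CPM.

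The segment minimised squared deviations about 1 mean inside and 1 outside. Regions were named by a fixed rule: called regions, the 10 next by p, smallest p and most reads at each listed gene, regions at the edges, extremes, and called or smallest p in flanks and lists. The gene sub-stretches were chosen after the values were seen. The block, its genes, lists and rules were chosen with earlier results of these data known. Since the table has no values per library, the planned tests on library counts were not run and the authors' FDR was used. Python 3.11.15, numpy 2.4.6, scipy 1.17.1 and pandas 2.3.3 were used.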

Additional observations from a re-analysis of the deposited data

How the results depend on the processing

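The 3 calls by the authors' test became 2 both with a limit of 0.01 on the FDR and with Holm's adjustment, each time without 136473789, 4 among regions of at least 1000 bp and 3 without chromosomes 11 and 16. With a dispersion of 0.01 or 0.04 in an exact test on the recovered sums, added after seeing the data, 1 was left in each case, at 136471695. The dispersion was set by hand, and how far single libraries spread was not tested. The median of 0.25 stayed between 0.22 and 0.27 in the 6 alternatives. The start of the shift moved from 136451649 to 135474625 with the wider span, with absolute deviations, and without the region of smallest p or the 3 called regions (both added after seeing the data). In the last 3 of these the end moved from 136695265 to 137980331. Weighting by CPM, values relative to like signal and a minimum of 15 regions left both edges in place. The 16 regions at the listed genes were 14 in gene bodies alone and 19 within 10 kb. No paired analysis was possible because the table holds no column of a single library, and for the same reason leaving out replicates and other count tools were not run. Depth limits the weak regions: the one with 12 and 13 reads at 136030431 had a counting interval from -1.38 to 1.13.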
